A study of Macaca mulatta with 30 samples.

Results

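The genes described here are 7 that carry sodium, chloride and water movement across the lung epithelium, followed across fetal lungs of rhesus macaques whose mothers received antenatal betamethasone. They were found by gene symbol in the lung count table, where 7 of 30246 gene identifiers matched, and all 7 were among the 17644 genes tested. SCNN1A, SCNN1B and SCNN1G encode the alpha, beta and gamma subunits of the epithelial sodium channel (ENaC). NEDD4L encodes the ubiquitin ligase that removes ENaC from the cell surface. ATP1B1 encodes the beta1 subunit of the Na,K-ATPase, the pump that moves sodium out of the cell at its basal side. CFTR encodes an apical chloride channel, and SLC12A2 encodes the basolateral sodium-potassium-chloride cotransporter that loads epithelial cells with chloride.

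In the fetus the lung epithelium secretes chloride, and water follows into the future airspace. Around birth the direction turns: sodium enters the cell through apical ENaC, leaves through the Na,K-ATPase, and liquid is drawn out of the airspace. Glucocorticoids are a known inducer of ENaC in the perinatal lung.

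RNA of whole lung was sequenced from 15 fetuses, with 3 animals in each of 5 groups. Control mothers received saline. The clinical drug, a mixture of betamethasone phosphate and betamethasone acetate, was given by intramuscular injection to the mother at 0.25 mg/kg, and fetal lungs were taken at 4 h or at 5 days. Betamethasone acetate alone (Beta-Ac) was given at 0.125 mg/kg, and lungs were taken at 6 h or at 5 days. Drug, dose and time differed together between the early groups and cannot be told apart there, while at 5 days only drug and dose differed. The lung labels give a gestational age of 124 to 130 days, and the hippocampus labels, which include 9 of the same animals, give 130 to 136 days. The lung labels give no time from saline to delivery, whereas the hippocampus labels of the 3 control animals give 5 days. Time since injection may therefore also differ between the early groups and control, where it cannot be told apart from drug. Between 14.1 and 45 M reads per lung library were counted on genes, and the deepest library was animal 1 of the clinical drug 4 h group. Levels are given as CPM, reads scaled to the library's total after TMM normalization. They are not corrected for transcript length, so levels are compared between groups for 1 gene and not between genes. In whole lung, fewer cells of a type and less RNA per cell cannot be told apart.

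The first question was whether the clinical drug changed these genes within hours of injection. At 4 h after the clinical drug all 3 ENaC subunits were induced, each more than 1.5-fold over control, while ATP1B1 differed little and CFTR was lower without passing the test. A gene was called when its fold change was at least 1.5, its p was under 0.05 and its Storey q was under 0.1 in edgeR's quasi-likelihood test. By this rule 3 of 7 genes were called, all higher, beside 7.4% of all genes tested in the same comparison. The median log2 fold change was 0.52 over the 7 genes and 0.02 over all genes tested.

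SCNN1A was at 204, 133 and 126 CPM in control animals 1, 2 and 3. At 4 h after the clinical drug it was at 330, 397 and 316 CPM. Every treated lung lay above every control, although control animal 1 stood well above the other two. The mean rose from 154 ± 43.2 to 348 ± 43.4 CPM (SD, n = 3), a 2.25-fold induction with a log2 fold change of 1.17 (SE 0.21, q = 0.00354).

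SCNN1B was at 23.4, 28.2 and 31.0 CPM in the controls and at 36.2, 68.3 and 66.4 CPM at 4 h after the clinical drug. The groups did not overlap, and animal 1 of the treated group was closer to the controls than to the other two treated animals. The log2 fold change was 1.04 (SE 0.23, q = 0.0121), which corresponds to 2.06-fold.

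SCNN1G was at 39.4, 47.6 and 41.4 CPM in the controls and at 59.5, 132 and 129.6 CPM at 4 h after the clinical drug. The controls were close together, and again animal 1 of the treated group was the lowest of its group while still above every control. The log2 fold change was 1.32 (SE 0.32, q = 0.0187), or 2.49-fold. That animal was not low for SCNN1A, and without it the log2 fold changes were 1.27 for SCNN1B and 1.60 for SCNN1G.

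**Figure D1:**
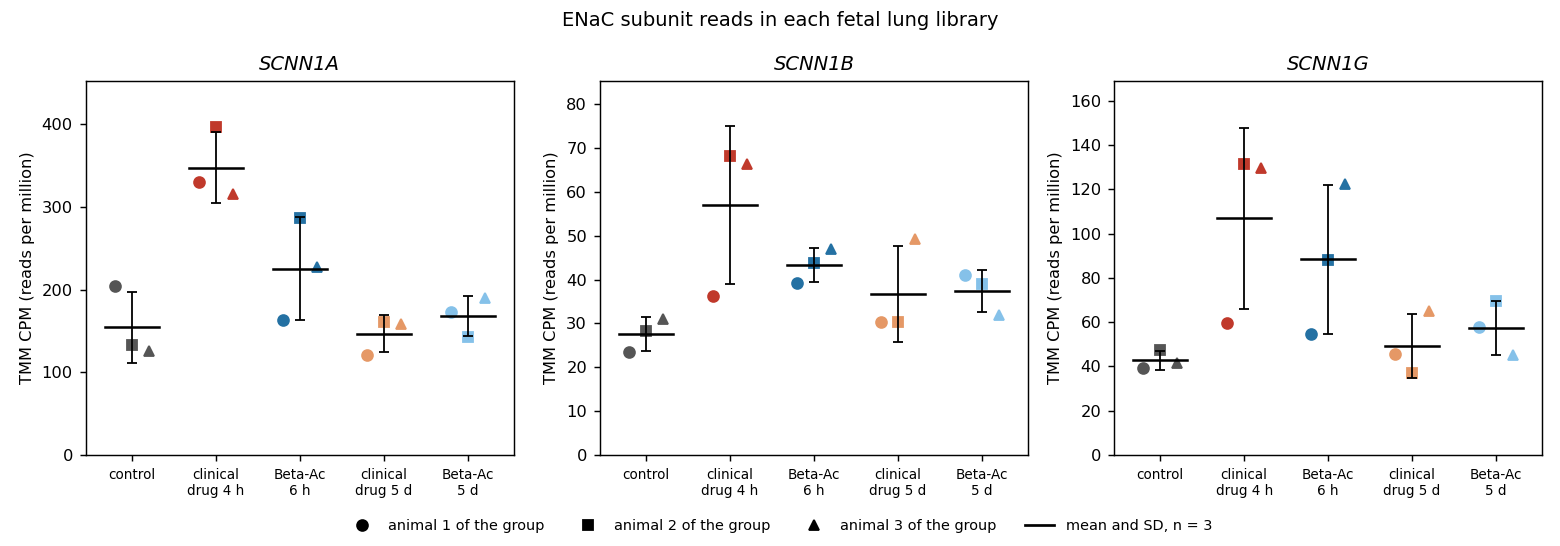
Reads of the 3 ENaC subunit genes in each of the 15 fetal lung libraries, as TMM CPM on linear axes that start at 0, by group; symbols are animals and black lines and bars are the mean and SD of 3 animals. The 4 h clinical drug animals lie above all controls for every subunit, and animal 1 of that group is low for SCNN1B (36.2 CPM) and SCNN1G (59.5 CPM) but not for SCNN1A (330 CPM).

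Of the genes that act with ENaC, NEDD4L had a smaller difference, which was not called. It was at 138, 159 and 144 CPM in the controls and at 196, 165 and 184 CPM at 4 h after the clinical drug, so the groups did not overlap. Its log2 fold change of 0.30 (SE 0.10, q = 0.0787) was under the 1.5-fold threshold, which is 0.585 on the log2 scale. SLC12A2 was at 65.8, 88.5 and 86.0 CPM in the controls and at 148, 89.8 and 106 CPM in the treated lungs. All treated values were above all controls, but animal 2 by only a small margin, and the log2 fold change of 0.52 (SE 0.16, q = 0.0467) was also under the threshold. Without that animal it was 0.65, and without control animal 2 it was 0.60, and both passed. Without animal 1 of the treated group, the highest, it was 0.27 and without control animal 1 it was 0.38.

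ATP1B1 was at 124, 155 and 150.1 CPM in the controls and at 113, 135 and 178 CPM at 4 h after the clinical drug. The groups overlapped fully, and the log2 fold change was -0.01 with a 95% interval from -0.58 to 0.55, just inside the 1.5-fold threshold on both sides. CFTR was low in every lung, with 23 to 214 reads per library. It was at 1.37, 8.76 and 5.37 CPM in the controls and at 3.45, 2.17 and 3.13 CPM at 4 h after the clinical drug. Control animal 1 was the lowest of all 15 lungs for CFTR, below each treated lung, and the other two controls were above each of them. The log2 fold change was -0.80 (SE 0.46, q = 0.261). Without control animal 1 it was -1.27 with q = 0.0283 and passed the thresholds. Without control animal 2, the highest for CFTR, it was -0.20 with q = 0.624.

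**Figure D2:**
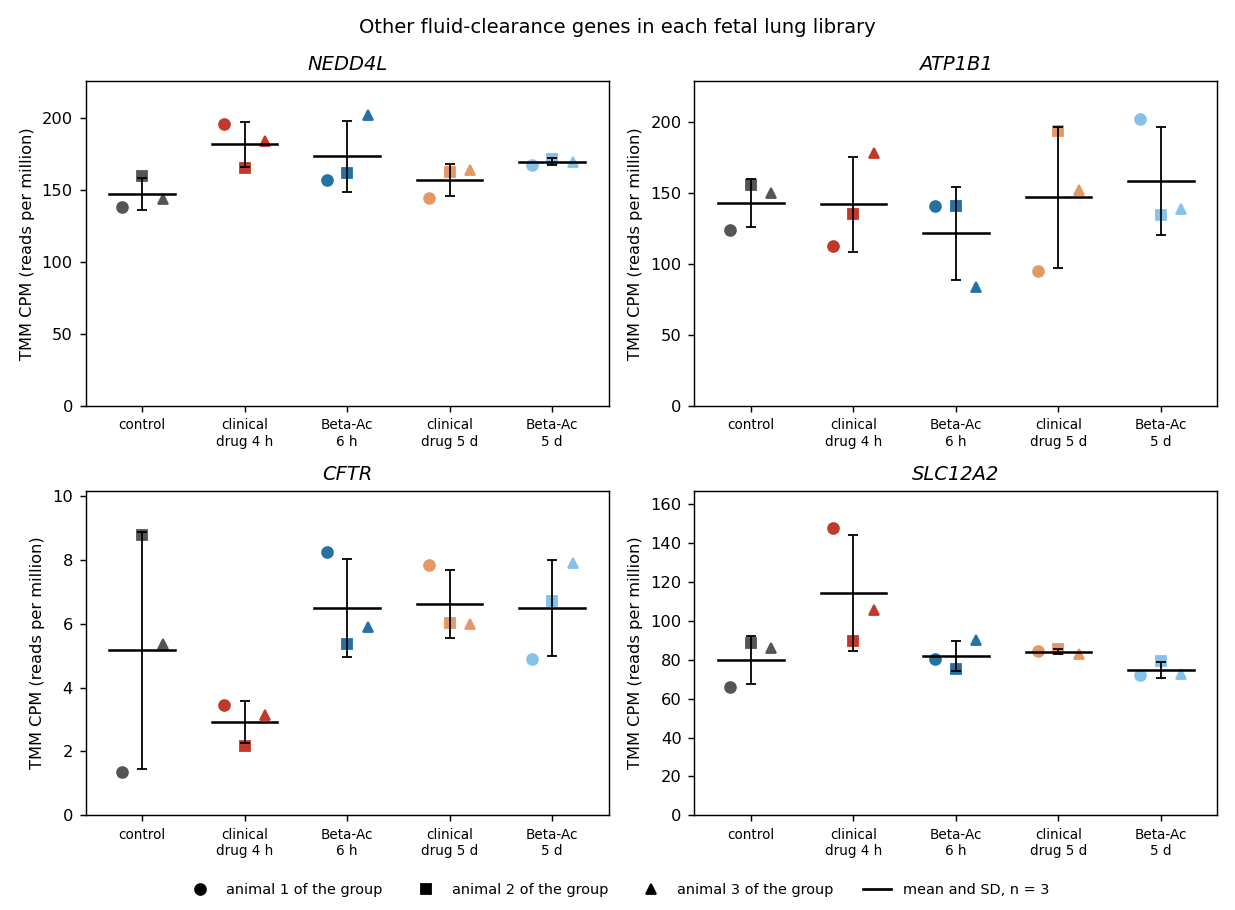
Reads of NEDD4L, ATP1B1, CFTR and SLC12A2 in each fetal lung library, as TMM CPM on linear axes that start at 0, with the mean and SD of 3 animals per group. Control animal 1 holds the lowest CFTR value (1.37 CPM), the SLC12A2 values of the 4 h clinical drug lungs spread from 89.8 to 148 CPM, and ATP1B1 overlaps between control and every treated group.

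Beta-Ac was examined 6 h after injection, against the same 3 control lungs. None of the 7 genes was called by edgeR's quasi-likelihood test, where 0.442% of all genes tested were. Unadjusted p in edgeR was under 0.05 for 4 of the 7, the 3 ENaC subunits and NEDD4L. Over all genes it was under 0.05 for 2021 of the 17644 tested. DESeq2 called 1 of the 7, SCNN1G, and the share of all genes it called is not given here. SCNN1A was at 163, 287 and 227 CPM, and animal 1 lay below control animal 1. Its log2 fold change against control was 0.55 (SE 0.21, q = 0.282). SCNN1B was at 39.2, 43.8 and 47.0 CPM, all above the controls, with a log2 fold change of 0.65 (SE 0.23, q = 0.265). SCNN1G was at 54.6, 88.1 and 122 CPM, also all above the controls and more spread, with a log2 fold change of 1.05 (SE 0.32, q = 0.215). The median log2 fold change was 0.33 over the 7 genes and 0.02 over all genes tested. The 95% intervals of the subunits' log2 fold changes were 0.09 to 1.01 for SCNN1A, 0.15 to 1.16 for SCNN1B and 0.36 to 1.73 for SCNN1G.

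None of the other genes was called after Beta-Ac. NEDD4L was at 157, 162 and 202 CPM, with animals 2 and 3 above the highest control and a log2 fold change of 0.24 (q = 0.316). ATP1B1 was at 140.4, 140.5 and 83.4 CPM, with animal 3 the lowest of all 15 lungs. CFTR was at 8.25, 5.38 and 5.88 CPM and SLC12A2 at 80.4, 75.2 and 90.2 CPM. Their log2 fold changes against control were -0.24 for ATP1B1, 0.33 for CFTR and 0.03 for SLC12A2, each with q of 0.58 or above.

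The early groups were also compared directly, without the controls. SCNN1A was 1.54-fold higher at 4 h after the clinical drug than at 6 h after Beta-Ac (log2 difference 0.62, SE 0.21, q = 0.0723), and every clinical drug lung was above every Beta-Ac lung. Of the 7 genes it alone was called by edgeR's quasi-likelihood test, where 6.74% of all genes tested were, and DESeq2 called SCNN1A and CFTR. This call was lost with Benjamini-Hochberg adjustment (adjusted p = 0.116 in edgeR), without a read filter and with only the groups compared. It was also lost without Beta-Ac animal 1 or 3 (log2 difference 0.44 and 0.63) or clinical drug animal 2 or 3 (0.52 and 0.68). SCNN1B and SCNN1G differed less between the drugs, with log2 differences of 0.39 (95% interval -0.11 to 0.88) and 0.27 (95% interval -0.40 to 0.94). For these subunits the interval holds both no difference and a difference beyond 1.5-fold. SLC12A2 was higher after the clinical drug by 0.49 on the log2 scale (q = 0.0582), under the fold threshold. CFTR was lower in each clinical drug lung than in each Beta-Ac lung, with a log2 difference of -1.14 (SE 0.45, q = 0.107), just outside the q threshold. It passed with DESeq2 (adjusted p = 0.0909) and with edgeR's likelihood ratio test (q = 0.0829). It also passed without clinical drug animal 1 (q = 0.0954), control animal 1 (q = 0.0279) or control animal 2 (q = 0.076).

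At 5 days no gene of the 7 was called for either drug against control by edgeR's quasi-likelihood test, none had an unadjusted p under 0.05, and DESeq2 called none. Of all genes tested 0% were called after the clinical drug and 0.00567% after Beta-Ac. The median log2 fold change of the 7 genes was 0.09 and 0.21, beside 0.00 and 0.01 over all genes. The paper, with edgeR and the same thresholds, reported more lung genes for each drug at both times, and many more at 5 days. The source of this difference in counts was not tested. SCNN1A was at 121, 161 and 159 CPM after the clinical drug and at 173, 142 and 190.0 CPM after Beta-Ac, within the control range of 126 to 204 apart from the lowest value. Against control its log2 fold change after the clinical drug was -0.07 (95% interval -0.53 to 0.39). After Beta-Ac it was 0.12 (95% interval -0.33 to 0.58). SCNN1B was at 30.3, 30.3 and 49.3 CPM after the clinical drug and at 41.0, 39.0 and 31.9 CPM after Beta-Ac. All 3 Beta-Ac lungs and 1 clinical drug lung were above the highest control. SCNN1G was at 45.7, 37.0 and 65.2 CPM after the clinical drug and at 57.7, 69.7 and 45.3 CPM after Beta-Ac, overlapping the controls in both groups.

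With both drugs pooled at 5 days, giving 6 treated lungs against 3 controls, none of the 7 genes was called, where 0.0113% of all genes tested were. Again none had an unadjusted p under 0.05, and DESeq2 called none. SCNN1B came closest, with a log2 fold change of 0.43 (95% interval -0.01 to 0.86, edgeR q = 0.738). The pooled log2 fold changes of the others were 0.03 for SCNN1A, 0.31 for SCNN1G, 0.15 for NEDD4L, 0.09 for ATP1B1, 0.35 for CFTR and -0.01 for SLC12A2. For each gene the 6 treated lungs overlapped the controls. CFTR was at 7.84, 6.03 and 5.99 CPM after the clinical drug and at 4.88, 6.71 and 7.89 CPM after Beta-Ac. Between the clinical drug and Beta-Ac at 5 days none of the 7 genes was called by edgeR or DESeq2, where 0% of all genes tested were, and none had an unadjusted p under 0.05. The log2 difference between the drugs had a 95% interval from -0.65 to 0.26 for SCNN1A, from -0.52 to 0.47 for SCNN1B and from -0.90 to 0.45 for SCNN1G.

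**Figure D3:**
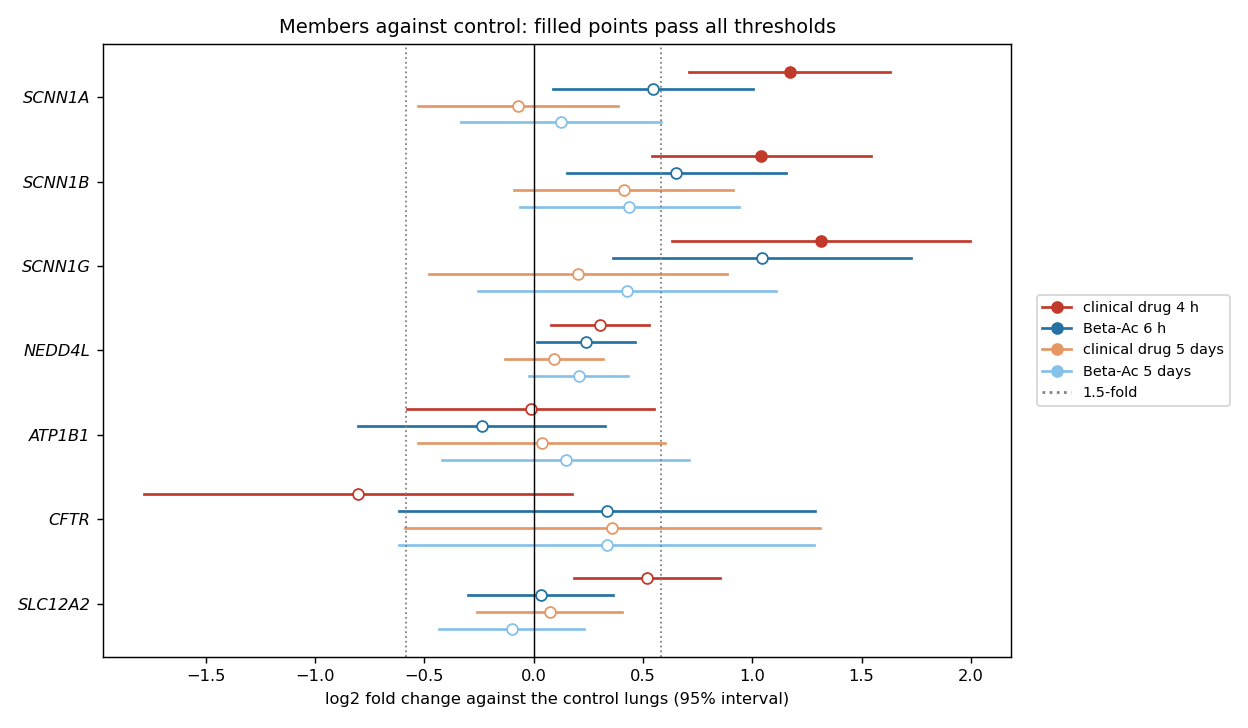
Log2 fold changes of the 7 genes against the same 3 control lungs, with 95% intervals from the edgeR fit; filled points passed the fold, p and q thresholds, and dotted lines mark 1.5-fold. Filled points are the 3 ENaC subunits at 4 h after the clinical drug (1.17, 1.04 and 1.32), and every interval at 5 days includes 0.

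Time after each drug was then compared within the drug. For the clinical drug, 4 of the 7 genes differed between 5 days and 4 h, where 10.4% of all genes tested did. SCNN1A was lower at 5 days by a log2 difference of -1.24 (SE 0.21, q = 0.00189), with no overlap between the times. SCNN1G was lower by -1.11 (SE 0.32, q = 0.0277) and SCNN1B by -0.63 (SE 0.23, q = 0.0705), and in both the highest 5-day lung lay above animal 1 at 4 h. CFTR was higher at 5 days, by 1.16 (SE 0.45, q = 0.0828), with every 5-day lung above every 4 h lung. The SCNN1A call held when any single animal was left out, whereas the other calls did not. Only SCNN1A was called without animal 2 of the 4 h group or animal 2 of the 5-day group, where SCNN1G was at -0.92 and -0.94. SCNN1A and SCNN1G were called without animal 3 of the 4 h group or animal 1 of the 5-day group, and the CFTR call was lost without any of the 3 animals of the 5-day group. With Benjamini-Hochberg adjustment in edgeR the SCNN1B and CFTR calls were lost (adjusted p = 0.115 and 0.135), as they were without a read filter, and SCNN1B was also lost with only the groups compared (q = 0.143). For Beta-Ac none of the 7 genes was called between 5 days and 6 h by edgeR or DESeq2, none had an unadjusted p under 0.05, and 0.261% of all genes tested were called.

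By group means, SCNN1A was highest at 4 h after the clinical drug, then at 6 h after Beta-Ac (226 ± 62.0 CPM), then at 5 days after Beta-Ac (168 ± 24.2 CPM), in control lungs and at 5 days after the clinical drug (147 ± 22.4 CPM). Only the first step of this order passed the thresholds. SCNN1B had means of 57.0 ± 18 CPM at 4 h, 43.3 ± 3.90 at 6 h, 37.3 ± 4.81 and 36.7 ± 11.0 at 5 days after Beta-Ac and the clinical drug, and 27.5 ± 3.87 in the controls. SCNN1G had the same order, with 107 ± 41.1, 88.3 ± 33.9, 57.6 ± 12.2, 49.3 ± 14.4 and 42.8 ± 4.29 CPM. No step between neighbours in these orders passed the thresholds.

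The subunits did not vary alike from animal to animal. Across the 15 libraries, SCNN1B and SCNN1G were each other's closest match among 11181 genes with a symbol and a mean of at least 1 CPM (Pearson r = 0.91 of log2 CPM, and 0.84 after group means were removed). The corresponding r of SCNN1A was 0.63 with SCNN1B and 0.70 with SCNN1G, and after group means were removed it was 0.02 and 0.17. The libraries share treatment groups and differ in depth, so these are descriptions over 15 points. In the RefSeq annotation of the macaque assembly T2T-MMU8v2.0 SCNN1G and SCNN1B are neighbours on the chromosome, and SCNN1A lies elsewhere. Among the genes closest to SCNN1A were TENT5B (r = 0.95) and PRKCQ (0.94). For SCNN1B the next after SCNN1G were RRAS (0.89) and FOCAD (0.88), and for SCNN1G the next after SCNN1B were EIF2B5 (0.90) and TGDS (0.89). The closest to SLC12A2 were MED13L (0.97), PLEKHG1 (0.92) and DPY19L4 (0.90), and to NEDD4L they were TRIP12 (0.89), SIX4 (0.86) and IRS2 (0.86). CFTR was matched by SNX21 (0.91), SOX5 (0.88) and PPARGC1B (0.86), and ATP1B1 by NME7 (0.79), CEP70 (0.77) and TRMT1L (0.77). NME7 is the next coding gene to ATP1B1 in that annotation. Rank correlation (Spearman rho) with the member was lower than r for most of the matches named here. It was 0.61 for CEP70, 0.675 for SIX4, 0.70 for IRS2, 0.71 for PPARGC1B and 0.72 for SNX21. For PRKCQ (0.946) and TRMT1L (0.839) it was higher than r.

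**Figure D4:**
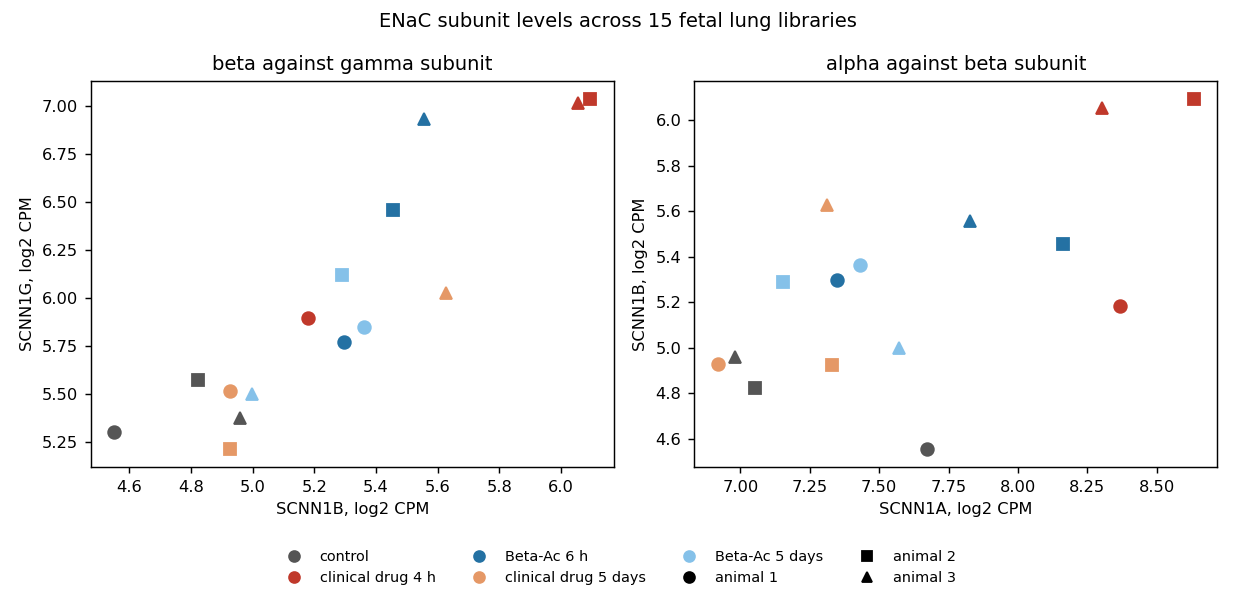
Log2 CPM of SCNN1G against SCNN1B (left) and of SCNN1B against SCNN1A (right) in 15 fetal lung libraries, with color for group and symbol for animal. SCNN1B and SCNN1G lie along a line (r = 0.91), whereas control animal 1 and clinical drug 4 h animal 1 combine high SCNN1A with low SCNN1B (r = 0.63).

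The members were set beside 59 further genes of the same pathways, of which 42 could be tested in lung. At 4 h after the clinical drug 8 of the 42 were called, 6 higher and 2 lower, where 7.4% of all genes tested were, and the median log2 fold change of the 42 was 0.0057, beside 0.02 over all genes tested. DESeq2 also called 8. Without control animal 3 the number called was 5.

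In the chloride and bicarbonate transport list 3 of 13 genes were called. SLC26A9, an epithelial chloride transporter, was at 6.96, 7.87 and 13.9 CPM in the controls and at 36.4, 52.1 and 53.0 CPM at 4 h after the clinical drug. This was the largest change among the 42 pathway genes in this comparison, with a log2 fold change of 2.29 (SE 0.32, q = 0.000617). CA2, a cytosolic carbonic anhydrase, was higher by 1.01 (q = 0.0189), and NHERF1, a scaffold that binds CFTR at the apical membrane, fell by 0.73 (q = 0.00334). Of 11 ENaC regulators 2 were called. PIK3R1, a regulatory subunit of phosphoinositide 3-kinase, rose by 1.32 (q = 0.000632), and USP2, a deubiquitinase, by 0.87 (q = 0.0709). SGK1, the kinase that inhibits NEDD4L, was at 89.6, 66.6 and 101 CPM in the controls and at 135, 114 and 194 CPM in the treated lungs. The SGK1 groups did not overlap, but its log2 fold change of 0.78 did not pass (q = 0.228).

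In the list of receptors and corticosteroid enzymes 3 of 5 were called. P2RY2, a receptor for extracellular ATP and UTP, was higher by 1.03 (q = 0.0178) and HSD11B2, which inactivates cortisol, by 0.74 (q = 0.0861). The HSD11B2 and USP2 calls were lost under several alternatives, and HSD11B2 was at 0.46 without clinical drug animal 2. NR3C2, the mineralocorticoid receptor, was lower by a log2 fold change of -0.84 (q = 0.0309), a call that was lost without control animal 3 (-0.69) and with only the groups compared (q = 0.122). None was called among the 4 proteases and inhibitors, the 4 potassium channels and the 2 water channels tested.

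At 6 h after Beta-Ac 1 of the 42 pathway genes was called by edgeR's quasi-likelihood test, where 0.442% of all genes tested were, and DESeq2 called 2, PIK3R1 and SLC26A9. PIK3R1 was at 185, 174 and 211 CPM against 85.7, 101 and 113 CPM in the controls (log2 fold change 0.93, SE 0.19, q = 0.0588). That call was lost without control animal 1 (0.81) or 2 (0.93) or Beta-Ac animal 3 (0.84). SLC26A9 was at 25.0, 14.7 and 23.4 CPM, above each control, with a log2 fold change of 1.13 (q = 0.18). It passed with DESeq2 (adjusted p = 0.0445), with edgeR's likelihood ratio test (q = 0.0464) and without Beta-Ac animal 2 (1.31, q = 0.0973). At 5 days none of the 42 was called for either drug against control by edgeR or DESeq2. Unadjusted p in edgeR was under 0.05 in 1 of them after the clinical drug and in 3 after Beta-Ac. Over all 17644 genes tested it was under 0.05 in 775 and 1133. Between the early groups 6 of the 42 were called, 5 of them higher after the clinical drug, where 6.74% of all genes tested were. Between 5 days and 4 h after the clinical drug 11 were called, 7 of them lower at 5 days, where 10.4% of all genes tested were. Between 5 days and 6 h after Beta-Ac 1 was called, PIK3R1, lower at 5 days by a log2 difference of -1.06 (q = 0.0629), where 0.261% of all genes tested were.

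**Figure D5:**
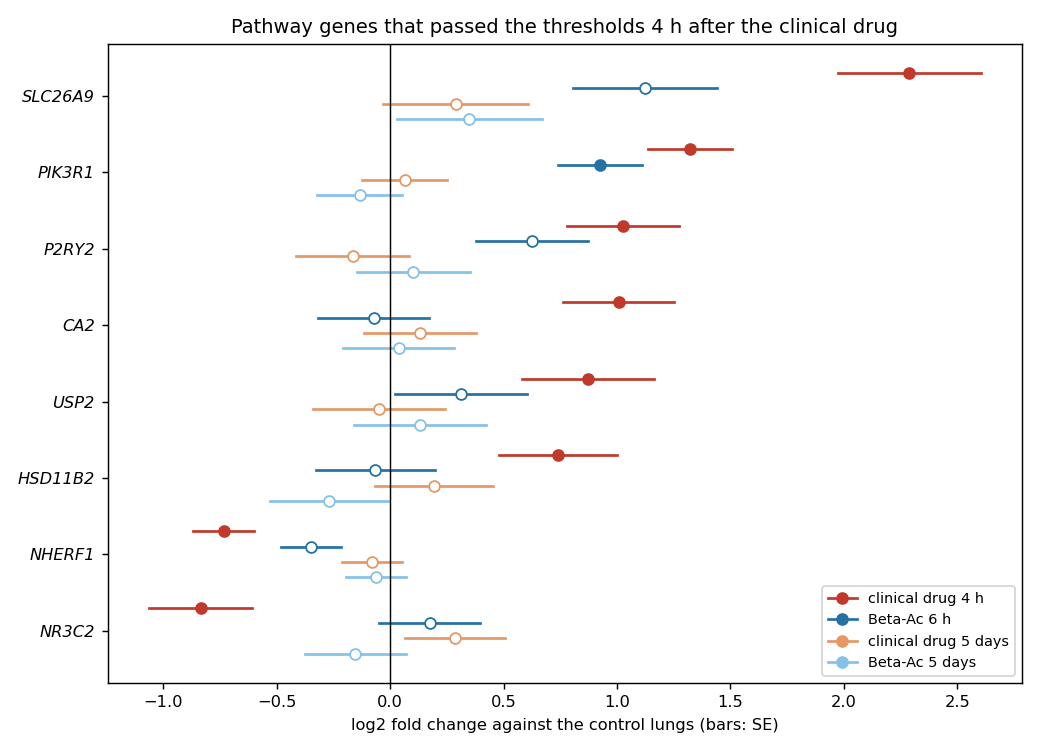
Log2 fold changes (points) with SE (bars) against control for the 8 pathway genes called at 4 h after the clinical drug, shown for 4 treated groups; filled points passed the thresholds. SLC26A9 has the largest value (2.29), NHERF1 and NR3C2 are below 0 at 4 h after the clinical drug, and at 5 days no point is filled.

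Markers of lung cell types were compared in the same libraries. EPCAM, CDH1, NKX2-1 and KRT18, general epithelial genes, were measured in every lung, none was called at 4 h after the clinical drug, and their summed level was 465 to 602 CPM in controls and 530 to 659 CPM in treated lungs. Of all genes tested 7.4% were called in that comparison, in either direction. Of 5 alveolar type 2 markers 3 were called higher at that time, SFTPC, ABCA3 and LAMP3. The list's summed level was 6335 to 9470 CPM in controls and 10488 to 16669 CPM in treated lungs. Of 5 alveolar type 1 markers HOPX was higher and RTKN2 lower, with sums of 1857 to 2753 and 2688 to 3327 CPM. In the endothelial list 1 of 3 genes, KDR, was lower (sums 2217 to 2363 and 1554 to 2188 CPM), and in the leukocyte list 2 of 3, PTPRC and CD3E, were lower (40.6 to 54.6 and 14.5 to 30.5 CPM). No gene of the airway, mesenchyme, smooth muscle or red blood cell lists was called. At 6 h after Beta-Ac no marker was called, the alveolar type 2 sum was 7507 to 12803 CPM, and the airway sum was 168 to 275 CPM against 17.5 to 153 CPM in controls. At 5 days the alveolar type 2 sum was 7202 to 10224 CPM after the clinical drug and 9738 to 11534 CPM after Beta-Ac. FOXI1, ASCL3 and ATP6V1G3, markers of ionocytes, were below the read minimum, with a sum of at most 0.274 CPM in any lung. The part of these shifts in the values of the 7 genes was not tested.

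The fetal hippocampus was sequenced in 3 groups of 5 animals, controls and both drugs at 5 days. Its library names and its treatment and dose fields name opposite drugs, and the names, which match the lung labels of the shared animals, were used. Control animals 1, 2 and 4 were in sequencing runs that held no treated animal. Drug and sequencing run are therefore partly mixed in the hippocampus comparisons with control. In hippocampus SCNN1B and SCNN1G each reached the minimum of 7 reads in only 2 libraries, with at most 40 and 12 reads, and were not tested. SCNN1A was at group means of 0.67 to 1.14 CPM and CFTR at 0.238 to 0.407 CPM. NEDD4L was at 102 to 123, ATP1B1 at 587 to 647 and SLC12A2 at 71.0 to 79.1 mean CPM. Lung and hippocampus were normalized separately, so these levels were not tested against lung. None of the 5 genes tested was called for the clinical drug against control, where 7.86% of all 17390 genes tested were. None was called for Beta-Ac against control or between the drugs either, where 0% of all genes were. No member had an unadjusted p under 0.05 in these 3 comparisons, and DESeq2 called none.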

How the data were processed

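The authors deposited whole-number counts per Ensembl gene, made with featureCounts from paired-end reads of 75 bp on genome build MMUL1.0. The paper names Bowtie 2, and the submitters' processing notes for lung name Bowtie 1.2.1.1 and featureCounts 1.5.1. Strand of counting is not given in the sources used here. In RefSeq, on a later assembly, the spans of SCNN1A, SCNN1B, NEDD4L, CFTR and SLC12A2 overlap those of other gene models. Exons and strand were not compared, so it is not known whether reads of those models were counted with theirs. No sequences were used, and RefSeq positions served only to find neighbouring and overlapping genes.

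The quasi-likelihood F-test of edgeR 4.0.16 (R 4.3.3) was run in 1 fit per tissue after TMM scaling, for genes that reached 7 reads in 3 or more libraries of lung, or 5 or more of hippocampus. A called gene passed 3 thresholds: 1.5-fold, p of 0.05, and 0.1 for the Storey q (lung) or the Benjamini-Hochberg adjusted p (hippocampus). Shares of all genes called are from this test and rule, and those under DESeq2 and the other alternatives are not given. Log2 CPM for correlations used a prior count of 2. Libraries held 14.1 to 45 M reads in lung and 18.3 to 29.3 M in hippocampus. The quasi-likelihood fit was tested on simulated counts, in lung for only some of the comparisons, and the Storey q on simulated p values. The other tests and the correlations were not tested in this way. Alternatives were RLE normalization, filterByExpr, no read filter, no fold threshold, the other adjustment, only the groups compared, the likelihood ratio test, DESeq2 1.42.0, each animal left out and, in hippocampus, sequencing run as a block and the treatment field's groups.

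The 7 members and the lists of pathway and marker genes were chosen with earlier results of these data known. All members are named, with the genes most like each, up to 3, and the pathway genes called against control. Some genes of these lists are not reported here and are left out of the pathway counts. SGK1 and the marker genes were named after their values were seen. All groups of a tissue shared 1 control group.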

Additional observations from a re-analysis of the deposited data

Results flagged for a closer look

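Results are listed here because the same gene differed between drugs or times by a test of that difference, or because 1 animal lay far from its group. In the direct comparison of the early groups, SCNN1A was higher after the clinical drug than after Beta-Ac by 0.62 on the log2 scale (edgeR quasi-likelihood test, q = 0.0723). Of the named pathway genes, 3 were also higher after the clinical drug. The log2 difference was 1.16 for SLC26A9 (q = 0.0333), 1.08 for CA2 (q = 0.019) and 0.80 for HSD11B2 (q = 0.0609). The HSD11B2 call was lost with only the groups compared (q = 0.198), and without clinical drug animal 2 (0.54) or 3 (0.81) or Beta-Ac animal 1 (0.75) or 3 (0.59). NR3C2 was lower after the clinical drug, by a log2 difference of -1.01 (q = 0.0176), a call that was lost with only the groups compared (q = 0.119).

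Within the clinical drug, the log2 difference of 5 days from 4 h was -1.24 for SCNN1A, -0.63 for SCNN1B, -1.11 for SCNN1G and 1.16 for CFTR. The SCNN1B and CFTR calls were lost with Benjamini-Hochberg adjustment and without a read filter, SCNN1B also with only the groups compared, and of the 4 only SCNN1A held without each animal in turn. In the hippocampus, control animal 5 was far from the other 4 controls for 2 genes, with SCNN1A at 2.68 CPM, the highest, and NEDD4L at 82.2 CPM, the lowest. It was also the highest control for SLC12A2 (123.5 CPM) and the lowest for CFTR (0.080 CPM) and ATP1B1 (545 CPM). Its label gave day 130 of gestation, the lowest of the controls, and no other control was in its sequencing run. Among 21 combinations of gene and hippocampus group examined, the SCNN1A and NEDD4L values were the 2 flagged. Chance sets apart about 1 in 20. Both flagged values came from this 1 animal, and the 21 include SCNN1B and SCNN1G, which were below the read minimum. The combinations are not independent, so this rate cannot decide whether chance was at work.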

How the results depend on the processing

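With 3 animals per lung group, 1 animal can decide a call. The induction of SCNN1A, SCNN1B and SCNN1G at 4 h after the clinical drug kept its direction and its call under each of the 8 alternatives and with each of the 15 lung animals left out. Dropping the fold threshold could only add calls, and only the control and 4 h clinical drug animals enter the means compared. The log2 fold changes without 1 animal ranged from 1.05 to 1.41 for SCNN1A, from 0.88 to 1.27 for SCNN1B and from 1.13 to 1.60 for SCNN1G. Without a fold threshold 5 of the 7 genes were called in that comparison. The shares of all genes tested given above hold for the main rule only, so they are not the background of counts under an alternative. At 6 h after Beta-Ac, DESeq2 and the likelihood ratio test each called 1 member, SCNN1G, and 2 pathway genes, PIK3R1 and SLC26A9. The share of all genes that these 2 tests called is not given here.

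Between the early groups the number of members called was 0 with Benjamini-Hochberg adjustment, without a read filter or with only the groups compared. It was 2 with DESeq2 or the likelihood ratio test (SCNN1A and CFTR) or without a fold threshold (SCNN1A and SLC12A2). Leaving out 1 animal moved it between 0 and 3. Between 5 days and 4 h after the clinical drug it was 2 (SCNN1A and SCNN1G) with Benjamini-Hochberg adjustment or without a read filter, and from 1 to 4 without 1 animal. Without 1 animal the number of pathway genes called was from 5 to 11 at 4 h after the clinical drug and from 0 to 2 at 6 h after Beta-Ac. Of the single pathway genes called at 4 h after the clinical drug, HSD11B2, USP2 and NR3C2 lost their call under 1 or more alternatives or left-out animals, and SLC26A9, PIK3R1, P2RY2, CA2 and NHERF1 kept it under each alternative and each left-out animal.

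Small fold changes that were not called changed sign when 1 animal was left out. At 4 h after the clinical drug, ATP1B1 ranged from -0.22 to 0.12 against control, and NEDD4L from -0.0011 to 0.19 against Beta-Ac at 6 h. At 6 h after Beta-Ac the ranges were -0.26 to 0.058 for CA2, -0.39 to 0.15 for HSD11B2, -0.13 to 0.93 for CFTR and -0.11 to 0.11 for SLC12A2. At 5 days after the clinical drug they were -0.21 to 0.27 for ATP1B1, -0.090 to 0.96 for CFTR, -0.20 to 0.18 for SCNN1A, -0.046 to 0.37 for SCNN1G and -0.050 to 0.15 for SLC12A2. At 5 days after Beta-Ac they were -0.066 to 0.25 for ATP1B1, -0.12 to 0.94 for CFTR and -0.0011 to 0.38 for SCNN1A. With both drugs pooled they were -0.034 to 0.21 for ATP1B1, -0.10 to 0.95 for CFTR, -0.10 to 0.28 for SCNN1A and -0.14 to 0.063 for SLC12A2. Mean CPM levels moved by less than 1 SD with RLE normalization or library totals alone. The count of members called in hippocampus was 0 under each alternative.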

Other observations

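Control animal 1 differed from the other two control lungs in several of the 7 genes at once. It had the highest SCNN1A of the controls (204 CPM, against 133 and 126 CPM), the lowest CFTR (1.37 CPM, against 8.76 and 5.37 CPM) and the lowest SLC12A2 (65.8 CPM, against 88.5 and 86.0 CPM). Across the 15 lung libraries SCNN1A and CFTR had a Pearson r of -0.63 of log2 CPM, and -0.71 after group means were removed. NEDD4L and SLC12A2 had an r of 0.60, and 0.68 after group means were removed. These are descriptions over 15 libraries that share groups, and what sets this animal apart was not tested.

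Some pathway genes called between times or drugs were not called against control. SGK2 and SLC26A4, low in every group, were higher at 4 h after the clinical drug than at 6 h after Beta-Ac by 1.48 (q = 0.0463) and 1.84 (q = 0.0193) on the log2 scale. FXYD3, a small protein that associates with the sodium pump, was higher at 5 days than at 4 h after the clinical drug by 1.43 (q = 0.0144), and SGK3 by 0.91 (q = 0.0515). KCNN4, a calcium-activated potassium channel, was lower at 5 days by a log2 difference of -1.32 (q = 0.0569). These genes were chosen after their values were seen.

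In the hippocampus 6 of 42 tested pathway genes were called for the clinical drug against control, 1 higher and 5 lower, where 7.86% of all genes tested were called. Drug and sequencing run were partly mixed in that comparison. None of the 42 was called for Beta-Ac against control by edgeR, where 0% of all genes tested were. Unadjusted p in edgeR was under 0.05 for 7 of them, beside 2133 of all 17390 genes tested. DESeq2 was not run for this list there.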
